A study of Homo sapiens with 6 samples.

Results

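Class I HLA genes and the genes that load peptide onto their products were followed across 6 single-colour Cy3 arrays of the human line given in the labels as Hep3B, an established line from a hepatocellular carcinoma. The genes were taken by annotated symbol: the heavy chains HLA-B, HLA-C, HLA-E, HLA-F and HLA-G, the light chain B2M, the transporter subunits TAP1 and TAP2, and tapasin, TAPBP. Of these 9 genes, 8 had at least 1 probe by that symbol, 16 probes in all among the 28264 of the array, and HLA-B was not analysed here. The tested arrays were 3 of cells labelled as transfected with CCN5, a secreted matricellular protein also called WISP2, and they were set against 3 of cells labelled as transfected with a vector, which the titles call GFP. All 6 share the line and a medium of DMEM with serum. The labels do not give how long the cells carried the constructs, whether they were selected clones, or whether replicates were separate cultures, so the spread behind every p-value is that among these arrays and could be technical.

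A class I molecule is a heavy chain paired with beta-2-microglobulin, the B2M product, around a short peptide. TAP1 and TAP2 form the channel that carries peptides from the cytosol into the endoplasmic reticulum, and tapasin holds empty class I molecules beside that channel until they bind a peptide well. HLA-C presents peptides to T cells and is a ligand of killer-cell receptors, HLA-E mainly displays leader peptides of other class I chains to natural killer cells, HLA-G is best known from placental trophoblast, and HLA-F can reach the surface without peptide. Interferons raise transcription of most of these genes, and reduced class I display is a known route by which tumours avoid T cells.

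Upstream sequences are given for 5 members, chosen after their values were seen: HLA-F and TAPBP, whose brightest probes differed by -0.79 and -0.37 on the log2 scale between the CCN5 and the vector label, and HLA-C, TAP1 and B2M, at -0.15, 0.02 and 0.13. HLA-E had no window in the sequences used and was not searched. The windows of HLA-B, HLA-G and TAP2 were searched too and are not printed. Each is the 250 bases before the annotated gene start, 5′ to 3′, from RefSeq (GRCh38.p14). Capitals mark every match, on either strand, to GAAANNGAAA (paired half-sites as in interferon response elements), GAANNGAAA (a shortened form found in HLA-C), CCAAT (as in the Y box) and TGACG (as in the X2 box of class I promoters).
HLA-F, GRCh38.p14 chr6:29723184-29723433, plus strand: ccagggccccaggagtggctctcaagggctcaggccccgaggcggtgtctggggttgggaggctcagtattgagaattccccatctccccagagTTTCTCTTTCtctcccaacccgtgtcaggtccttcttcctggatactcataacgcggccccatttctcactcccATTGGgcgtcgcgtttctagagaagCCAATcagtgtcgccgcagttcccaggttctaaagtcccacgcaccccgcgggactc
TAPBP, GRCh38.p14 chr6:33314079-33314328, minus strand: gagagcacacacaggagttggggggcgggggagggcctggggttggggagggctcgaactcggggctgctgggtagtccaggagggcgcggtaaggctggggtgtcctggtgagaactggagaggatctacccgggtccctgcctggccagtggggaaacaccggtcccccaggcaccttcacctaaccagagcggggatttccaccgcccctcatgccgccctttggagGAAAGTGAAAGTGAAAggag
HLA-C, GRCh38.p14 chr6:31272093-31272342, minus strand: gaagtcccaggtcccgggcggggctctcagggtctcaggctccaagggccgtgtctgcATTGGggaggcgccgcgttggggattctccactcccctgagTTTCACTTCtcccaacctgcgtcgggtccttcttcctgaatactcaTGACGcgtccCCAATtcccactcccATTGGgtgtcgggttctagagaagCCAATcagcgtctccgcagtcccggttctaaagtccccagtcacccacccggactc
TAP1, GRCh38.p14 chr6:32853705-32853954, minus strand: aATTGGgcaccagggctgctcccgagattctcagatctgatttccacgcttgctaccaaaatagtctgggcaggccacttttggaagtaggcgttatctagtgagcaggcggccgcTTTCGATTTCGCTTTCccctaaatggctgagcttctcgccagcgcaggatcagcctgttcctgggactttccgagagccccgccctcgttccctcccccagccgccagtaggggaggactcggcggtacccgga
B2M, GRCh38.p14 chr15:44711267-44711516, plus strand: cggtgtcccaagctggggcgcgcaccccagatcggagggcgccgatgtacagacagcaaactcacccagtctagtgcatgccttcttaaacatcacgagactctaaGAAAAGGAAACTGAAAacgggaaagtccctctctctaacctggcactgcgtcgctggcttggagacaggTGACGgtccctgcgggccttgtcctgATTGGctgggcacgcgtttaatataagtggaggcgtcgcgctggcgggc

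GAAANNGAAA was found once in the HLA-F window, 2 times each in the TAPBP and B2M windows and in 1 of 2 TAP1 windows (the one printed), where the 2 matches overlap, and once in TAP2, against 3.02% of 35116 windows of the same length. GAANNGAAA was found in HLA-C, HLA-B and TAP2, against 6.56% of all windows. CCAAT or its complement was found in HLA-B, HLA-C, HLA-F, B2M, 1 of 3 HLA-G windows and 1 of 2 TAP1 windows, against 32% of all windows. TGACG was found in HLA-B, HLA-C, B2M and TAP2 and not in the HLA-F, TAPBP, TAP1 or HLA-G windows, against 21.2% of all windows. None of the 3 HLA-G windows held either half-site motif. The windows of HLA-F and HLA-C were identical at 78.2% of aligned positions, and those of HLA-F and B2M at 46.1%. The letters searched were chosen with these sequences in view, a match does not show a working site, and these are reference sequences of a polymorphic region, not those of the cells on the arrays.

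Median intensity lay between 504 and 600 on every array, and vector replicate 1 stood apart with 1330 intensities below 0, against 0 to 12 on each other array. The number of arrays limits the precision. The CCN5 probe itself read 673, 672 and 620 on the arrays labelled CCN5, against 835, 836 and 880 on those labelled vector (log2 difference -0.34, SE 0.09, limma adjusted p 0.151), so signal ran against the labels, although where that probe lies relative to the transfected sequence is not known here, and every direction below rests on the labels alone. Most markers also ran against the labelled cell type. Of 19 measured hepatocyte and hepatoma markers, 16 were dimmer than the median probe (percentile 50 of mean signal), with ALB at percentile 12.2, AFP at 26.7 and APOA1 at 48.4. The brighter ones were KRT18 at percentile 97.4, FOXA1 at 59.5 and FOXA2 at 53. Of 12 squamous epithelial markers 2 were dimmer than the median probe, SPRR1A at percentile 29.9 and SPRR1B at 48.7. KRT5 was at percentile 98.4 and KRT14 at 95.4. The cells are therefore called cells labelled Hep3B.

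Most class I and loading probes read lower on the arrays labelled CCN5, though none passed limma when adjusted over the whole array. Of the 16 probes 12 were lower and 4 higher, with a median log2 difference of -0.20. Over all 28264 probes 50.7% were lower, with a median of -0.0047. The 2 parts differed. The 8 heavy-chain probes had 7 lower and 1 higher (median -0.37). Those of B2M, TAP1, TAP2 and TAPBP, 8 in all, had 5 lower and 3 higher (median -0.09). On 7 of the 16 probes the groups did not overlap on the normalized scale, with the CCN5 label at the lower side, against 14.8% of all probes. On 0 of the 16 was the CCN5 label at the upper side without overlap, against 11.8% of all probes. Brighter probes separated the labels more often, and 12 of the 16 members lie in the brighter 50%. Of those 14132 probes, 2603 had the CCN5 label below without overlap and 2278 above. At an unadjusted limma p under 0.05, 1686 of the 14132 were lower and 1522 higher. As probes of a gene read the same transcripts, the member counts are not counts of independent events. With limma, 0 of the 16 probes and 0% of all probes passed in either direction at a Benjamini-Hochberg adjusted p under 0.05, and at an unadjusted p under 0.05 there were 7 lower and 0 higher members, against 10.4% and 8.62% of all probes. Differences below are arrays labelled CCN5 minus arrays labelled vector on the quantile normalized log2 scale, and probes of a gene are numbered from the brightest.

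**Figure D1:**
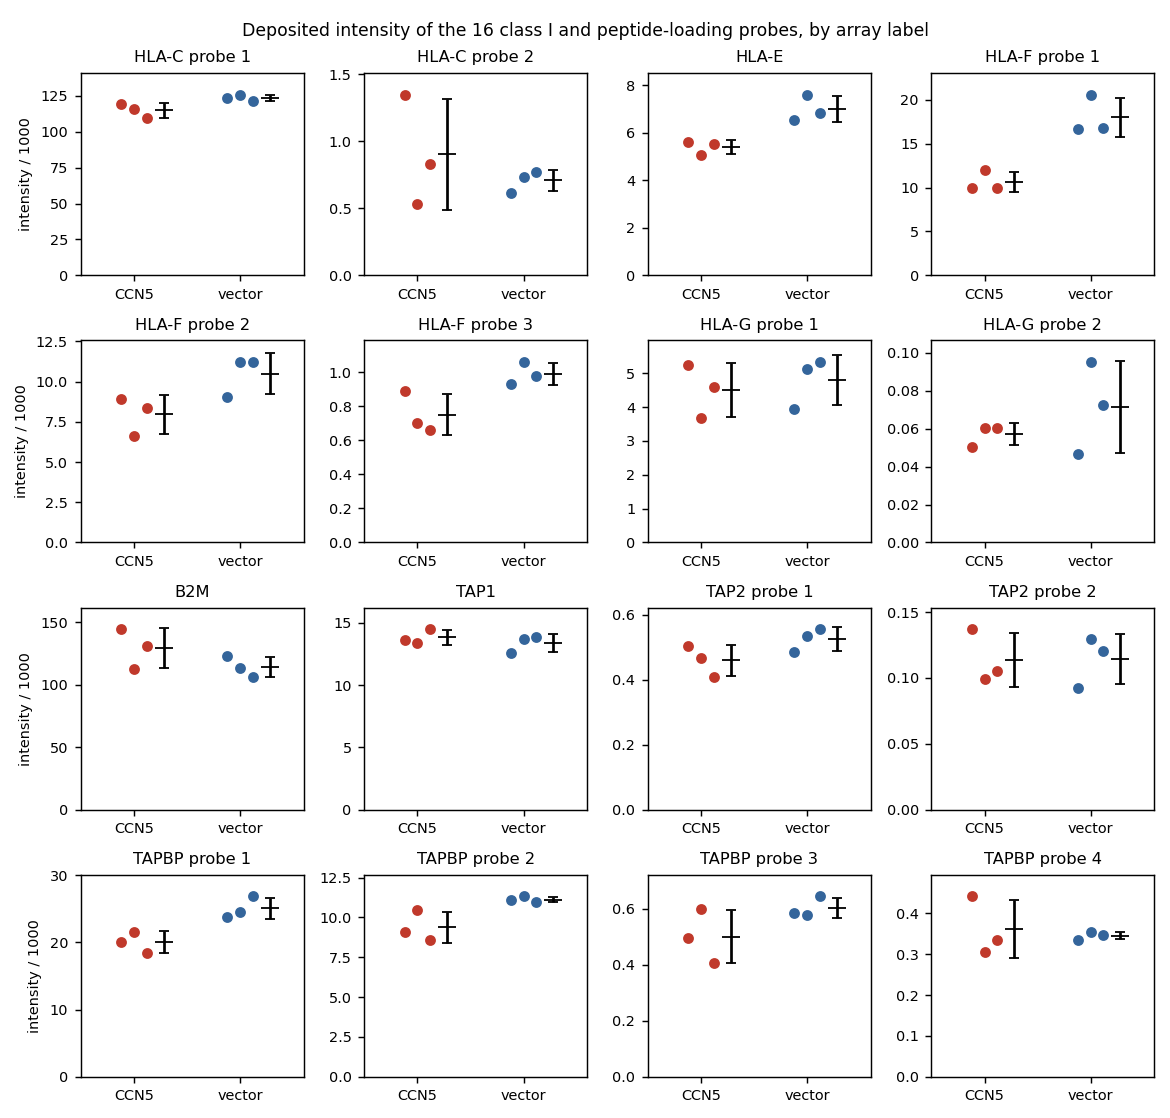
Deposited intensity (divided by 1000, linear axis from 0) of the 16 probes, 1 panel per probe, with the 3 arrays labelled CCN5 at left and the 3 labelled vector at right. Points are arrays, and the bar beside them is the mean with its SD (n = 3). HLA-F probe 1 shows the widest gap relative to its level, 9971 to 11959 with the CCN5 label against 16632 to 20555 with the vector label, while the B2M, TAP1 and HLA-G probe 1 arrays overlap.

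HLA-F had the largest difference among the heavy chains. Its probe 1, at percentile 93.1 of signal, read intensities of 9971, 11959 and 9971 on CCN5 replicates 1 to 3, against 16632, 20555 and 16800 on vector replicates 1 to 3. Every array labelled CCN5 lay below every array labelled vector, by a wide margin. On the log2 scale the arrays labelled CCN5 were at -0.79 relative to vector (SE 0.13, 95% interval -1.10 to -0.47), so the vector label was 1.73-fold higher. It ranked 184th of 28264 probes by p, its limma adjusted p was 0.106, and the exact two-sided permutation p was 0.1, the smallest that 3 arrays against 3 allow.

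The other HLA-F probes were lower too, by less. Probe 2 read 8931, 6624 and 8391 with the CCN5 label, against 9018, 11222 and 11214 with the vector label. CCN5 replicate 1 and vector replicate 1 nearly met on that probe, and they overlapped after normalization (difference -0.42, SE 0.16, limma adjusted p 0.242). Probe 3 read 892, 700 and 663 with the CCN5 label, against 933, 1060 and 981 with the vector label. Its groups did not overlap, and the difference was -0.37 (SE 0.10, limma adjusted p 0.156). Which part of the HLA-F transcript each probe reads is not given in the labels or the annotation used.

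HLA-E, the ligand of the CD94 receptors of natural killer cells, was lower as well. Its single probe read 5596, 5059 and 5529 on the arrays labelled CCN5, against 6558, 7600 and 6821 on those labelled vector. The groups did not overlap. The difference was -0.38 (SE 0.10, 95% interval -0.63 to -0.13, limma adjusted p 0.158), 1.30-fold higher with the vector label.

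The HLA-C probes went opposite ways. Probe 1, at percentile 99.5 of signal, read 119397, 115661 and 109537 with the CCN5 label, against 123193, 125671 and 121304 with the vector label. These groups did not overlap, but the gap was small (difference -0.15, SE 0.09, 95% interval -0.38 to 0.07, limma adjusted p 0.423). Probe 2 read 1346, 529 and 830 with the CCN5 label, against 618, 737 and 772 with the vector label. CCN5 replicates 1 and 2 were the highest and the lowest of its 6 values, so its difference of 0.31 (SE 0.29) lay within the spread, and without CCN5 replicate 1 it was 0.01.

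HLA-G did not separate the labels on its brighter probe. Probe 1 read 5251, 3671 and 4602 with the CCN5 label, against 3953, 5131 and 5332 with the vector label. The arrays of both labels were interleaved (difference -0.09, SE 0.18, 95% interval -0.53 to 0.35, limma adjusted p 0.831). Probe 2, at percentile 14.3, read 50.4, 60.4 and 60.6 with the CCN5 label, against 46.8, 95.1 and 72.4 with the vector label. Vector replicate 1 was the lowest of the 6 as deposited and lay above the probe's mean (by 0.30 on the log2 scale) once normalized. The normalized difference was -0.51 (SE 0.19, limma adjusted p 0.230), with overlapping groups, against -0.27 on the deposited scale and -0.22 under median centring. HLA-F, HLA-G and the other heavy chains are close relatives, and how far each probe also binds transcripts of the others was not tested.

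B2M, the chain shared by all these molecules, averaged higher with the CCN5 label, within the spread. Its probe, at percentile 99.5 of signal, read 144608, 112409 and 131034 on the arrays labelled CCN5, against 123014, 113397 and 106491 on those labelled vector. The highest values carried the CCN5 label, but CCN5 replicate 2 lay below vector replicates 1 and 2. The difference was 0.13 (SE 0.11, 95% interval -0.14 to 0.40, limma adjusted p 0.580), and it was 0.0463 without CCN5 replicate 1, 0.203 without CCN5 replicate 2 and 0.0809 without vector replicate 3.

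The transporter subunits differed little. TAP1 read 13653, 13393 and 14501 with the CCN5 label, against 12581, 13740 and 13909 with the vector label. The groups overlapped, and the difference was 0.02 (SE 0.10, limma adjusted p 0.926) with a 95% interval of -0.21 to 0.26. For TAP2, probe 1 read 504, 466 and 409 with the CCN5 label, against 485, 534 and 555 with the vector label. The deposited values overlapped and the normalized ones did not (difference -0.14, SE 0.09, limma adjusted p 0.413). TAP2 probe 2, at percentile 23.7, stood at -0.03 (SE 0.09).

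TAPBP was lower on its brighter probes. Probe 1 read 20093, 21627 and 18377 on the arrays labelled CCN5, against 23849, 24556 and 26874 on those labelled vector. The groups did not overlap, with a difference of -0.37 (SE 0.11, 95% interval -0.64 to -0.11, limma adjusted p 0.167). Probe 2 read 9068, 10487 and 8571 with the CCN5 label, against 11070, 11322 and 10972 with the vector label, again without overlap (-0.26, SE 0.10, limma adjusted p 0.232). Probe 3 stood at -0.24 (SE 0.15) and probe 4, at percentile 42.9, at 0.09 (SE 0.11), both with overlapping groups.

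**Figure D2:**
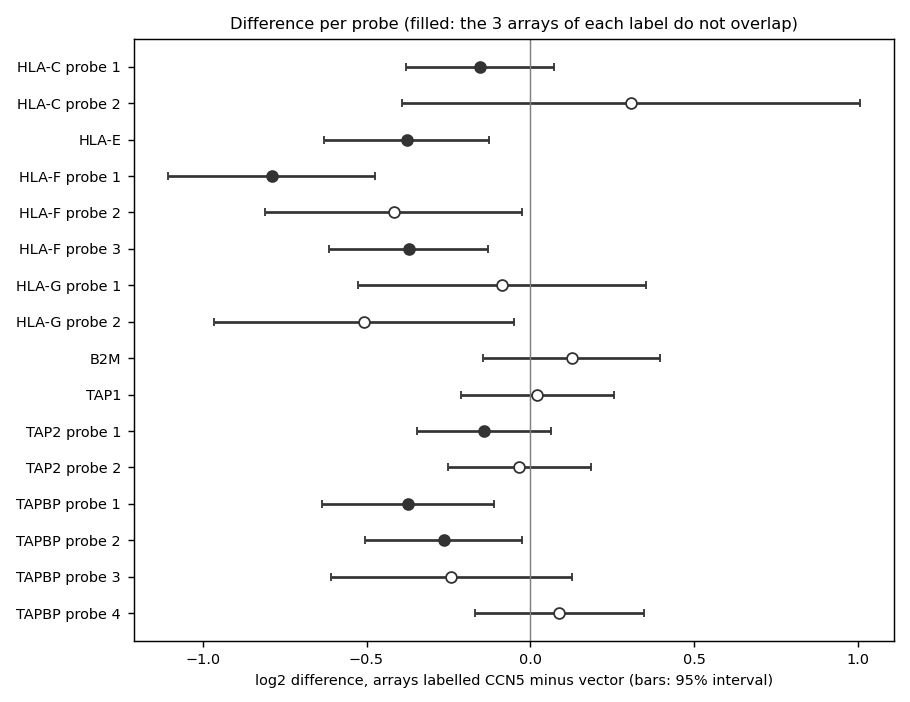
Log2 difference of each probe (points, arrays labelled CCN5 minus vector) with limma's 95% interval (bars), from the heavy chains at the top to TAPBP at the bottom. Filled points are probes on which the 3 arrays of each label do not overlap. The HLA-F and HLA-E intervals and those of TAPBP probes 1 and 2 lie below 0, as does that of HLA-G probe 2, and those of B2M and TAP1 span 0.

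Differences between members were examined as the log2 ratio of 2 probes on each array, for 6 ratios. In each ratio the upper probe (HLA-F probe 1, HLA-E or TAPBP probe 1) already separated the labels by itself. The ratios therefore describe these probes further and are not separate tests. The HLA-F probe 1 ratio to B2M differed by -0.92 on the log2 scale between the CCN5 and the vector label (SD 0.28 with the CCN5 label and 0.18 with the vector label, n = 3 each). Its groups did not overlap (exact two-sided permutation p 0.1, adjusted 0.12 over the 6 ratios). The same p applied to HLA-E over B2M (-0.50), HLA-F probe 1 over HLA-C probe 1 (-0.64), HLA-F probe 1 over HLA-E (-0.41) and TAPBP probe 1 over TAP1 (-0.40). The ratio of HLA-F probe 1 to HLA-F probe 2 differed by -0.37, and its groups overlapped (exact permutation p 0.2). None of the 6 could pass the 0.05 threshold at this number of arrays.

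By array, the median deviation of the 16 probes from their own means was -0.03, -0.09 and -0.14 on CCN5 replicates 1 to 3, and 0.06, 0.16 and 0.11 on vector replicates 1 to 3. The probes above their own mean numbered 6, 4 and 5 on the 3 arrays labelled CCN5, against 11, 12 and 12 on the 3 labelled vector. These medians and counts restate the probe differences above, with several probes of the same gene. The same count over all probes was not taken. Over the 6 arrays the closest pair of members by brightest probe was TAP2 and HLA-C, with a root-mean-square distance of 0.058 between mean-centred log2 values. The farthest was HLA-F and B2M, at 0.50. TAP1 and B2M, both with overlapping labels, were 0.13 apart.

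**Figure D3:**
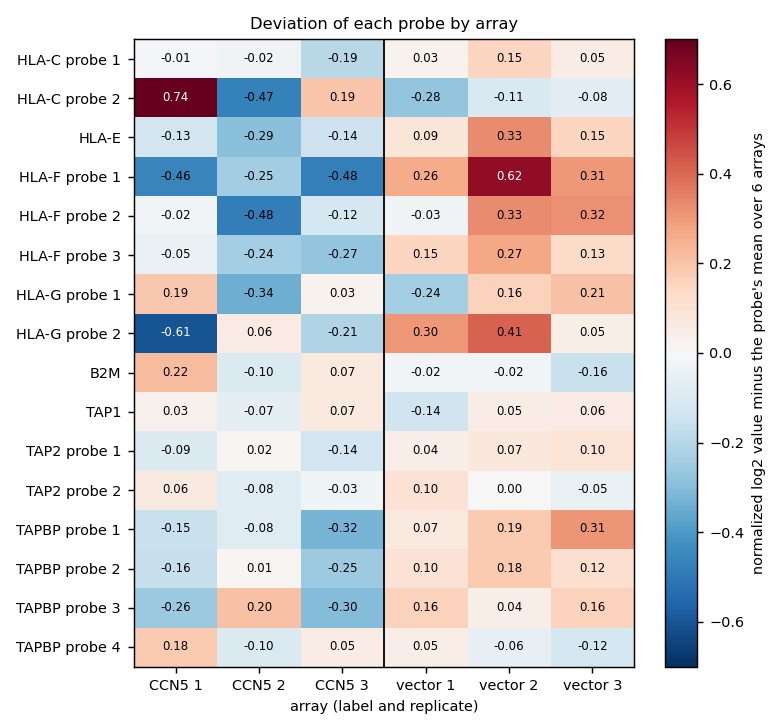
Normalized log2 value of each probe minus its own mean over the 6 arrays (rows: probes, columns: arrays, with those labelled CCN5 at left of the line). Red is above and blue below the probe's mean. HLA-F probe 1 holds -0.46, -0.25 and -0.48 with the CCN5 label and 0.26, 0.62 and 0.31 with the vector label, while HLA-C probe 2 runs from -0.47 to 0.74 among the arrays labelled CCN5.

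Among 10559 other genes above the median signal, the pattern over the 6 arrays closest to that of HLA-F probe 1 was that of PFKFB4, a glycolytic regulator, at a root-mean-square distance of 0.062 (log2 difference -0.85). SLC22A23 (distance 0.064, difference -0.68), the collagen prolyl hydroxylase subunit P4HA2 (0.087, -0.73), STING1, an adaptor of cytosolic DNA sensing (0.090, -0.77), and the peptidase MME (0.091, -0.67) followed. For HLA-E the closest were NMRK1 (distance 0.023, difference -0.40), the cap-binding protein gene NCBP2 (0.029, -0.33), TNFSF10, which encodes the death ligand TRAIL (0.030, -0.42), SH3BP2 (0.039, -0.33) and CHRNB1 (0.040, -0.32). These 10 genes had limma adjusted p from 0.0969 to 0.184. They were picked for likeness to patterns that separate the labels, so their differences and p follow from that choice.

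Genes that make, trim and chaperone the peptides were counted list by list. Related lists were read by the brightest probe of each gene, and no member of any passed limma over all probes, as no probe on the array did. Of all 19090 genes, 51.9% were lower, with a median of -0.01. Among 9 measured loading chaperones and trimming enzymes 4 were lower and 5 higher (median 0.02). PDIA3, the oxidoreductase bound to tapasin, read 1925, 1843 and 2252 with the CCN5 label, against 1569, 1559 and 1714 with the vector label (0.32, SE 0.12, with a second probe at -0.19), and the chaperone CALR stood at 0.21 (SE 0.10) and the trimming enzyme ERAP2 at -0.22 (SE 0.12, with a second probe at 0.08). Among 6 cytosolic peptidases 4 were higher (median 0.19), with THOP1, which degrades class I peptides, at 0.30 (SE 0.09) and LAP3 at 0.29 (SE 0.14).

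The proteasome genes were mixed, with 3 of 8 lower and a median of 0.04. PSMB9, an immunoproteasome subunit encoded beside TAP1, read 8595, 9710 and 9804 with the CCN5 label, against 11051, 12065 and 11672 with the vector label. Those groups did not overlap (-0.33, SE 0.10, limma adjusted p 0.173). The activator subunit PSME1 stood at -0.24 (SE 0.09, with a second probe at -0.15) and the immunoproteasome subunit PSMB10 at -0.14 (SE 0.09). PSMB8, which lies between TAP1 and TAP2 and was chosen for mention after its values were seen, was at 0.04 (SE 0.12, with a second probe at -0.38).

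Of 15 measured regulators of class I transcription 13 were higher and 2 lower (median 0.18). The 2 lower ones were IRF1, an interferon-induced activator of class I promoters, and RFX5, which binds the X box. IRF1 read 5966, 6539 and 5666 with the CCN5 label, against 8016, 8082 and 7944 with the vector label (-0.42, SE 0.09, limma adjusted p 0.121, and -0.33 on a second probe). RFX5 stood at -0.26 (SE 0.09). IRF2, of the same family as IRF1, was at 0.35 (SE 0.12), and RFXAP, a partner of RFX5, at 0.43 (SE 0.15) and percentile 22.6. NFYC, a Y box subunit, was at 0.29 (SE 0.10), with its other probes at -0.46, 0.26 and -0.71. NLRC5, the class I transactivator, was chosen for mention after its values were seen: it read 4652, 3907 and 4075 with the CCN5 label, against 3303, 4004 and 4519 with the vector label, with overlap (0.11, SE 0.14, limma adjusted p 0.721).

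Of 11 measured interferon receptor and signalling genes 7 were lower (median -0.06). IRF9, the DNA-binding part of the factor that type I interferons activate, read 6250, 7027 and 6043 with the CCN5 label, against 8679, 9095 and 9032 with the vector label (-0.49, SE 0.09, limma adjusted p 0.108, and -0.38 on a second probe). IFNAR2 stood at -0.29 (SE 0.11, with a second probe at -0.42) and IFNAR1 at 0.19 (SE 0.09, with a second probe at -0.02). Of 11 measured genes of class I turnover and surface exit 3 were lower (median 0.08). The lowest p among them was that of SUSD6 (-0.28, SE 0.08), known as part of a complex that sends class I molecules to lysosomes, followed by SEC61A1, a translocon subunit (0.30, SE 0.10).

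Class I-like molecules gave 10 of 18 lower and a median of -0.06. MR1, which presents microbial metabolites, read 5553, 6532 and 5960 with the CCN5 label, against 8584, 8075 and 8398 with the vector label (-0.49, SE 0.09, limma adjusted p 0.106), and a second probe stood at -0.03. RAET1G, a ligand of the natural killer receptor NKG2D, was at -0.61 (SE 0.12), and the NKG2D ligands MICA and MICB were at -0.24 (SE 0.11) and 0.27 (SE 0.11). Class II pathway genes had 8 of 13 lower and a median of -0.15, and 8 of the 13 were dimmer than the median probe. HLA-DRA read 1263, 1382 and 986 with the CCN5 label, against 1541, 1525 and 1596 with the vector label (-0.34, SE 0.12), with a second probe at 0.08.

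**Figure D4:**
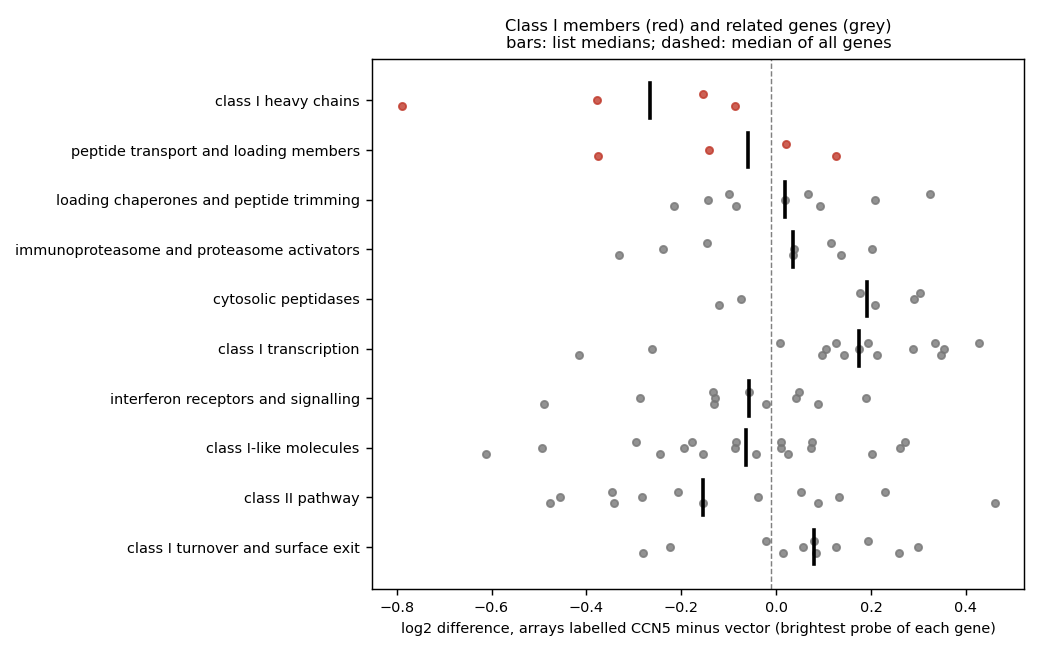
Log2 difference (arrays labelled CCN5 minus vector) of the brightest probe of each measured gene in 10 lists. Points are genes, red for the class I and loading members and grey for related genes, short bars are list medians and the dashed line is the median of all genes (-0.01). The heavy-chain median is -0.27 and that of the transport and loading members, with 2 genes lower and 2 higher, is -0.06. The medians of cytosolic peptidases (0.19) and class I transcription (0.18) lie right of the line.

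Leukocytes carry class I molecules at high density, so their markers were read beside the heavy chains. The labels give a cultured line for all 6 arrays. Of 14 measured leukocyte markers 12 were lower (median -0.35), 11 were dimmer than the median probe, and their summed intensity was 9485 to 11710 on the arrays labelled CCN5, against 13530 to 14250 on those labelled vector. CD3D and CD68 made up 62.7% to 69.6% of that sum. The rest summed to 3295 to 4255 with the CCN5 label, against 4198 to 5132 with the vector label. The CD3D probe in the sum lay at percentile 82, but its second probe lay at 7.73 (difference -0.45) and CD3E at 12.3. What the brighter CD3D probe reads in these cells was not tested. PTPRC, which defines the lineage as CD45, lay at percentile 15.1 and read 52.9 to 94.3 with the CCN5 label, against 37.9 to 77.4 with the vector label. Its normalized difference was -0.07 (SE 0.15), with overlapping groups and a second probe at -0.30. Of the leukocyte markers 0 were at or below 0 on any array, which does not show detection. LYZ, at percentile 3.83, and FCER1G, at 12.9, each read 3.99 on vector replicate 1. CD68 stood at -0.41 (SE 0.09). Fibroblast markers had 8 of 11 lower (median -0.23), with sums of 46380 to 55890 on the arrays labelled CCN5, against 66450 to 70070 on those labelled vector. S100A4 alone made up 83.7% to 91% of that sum, and the rest summed to 6396 to 7758 with the CCN5 label, against 6321 to 9134 with the vector label, with overlap. Squamous markers had 9 of 12 lower (median -0.21), with KRT14 at -0.62 (SE 0.11) and the brighter KRT5 at 0.40 (SE 0.17, overlapping groups), and endothelial markers had 4 of 8 lower (median 0.0039). The part of any of these in the class I readings was not tested. In bulk RNA, fewer cells of a type and less RNA per cell cannot be told apart.

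The call for HLA-F depended on the set of probes and the variance model. HLA-F probe 1 passed without the lowest 50% of probes (limma adjusted p 0.0173, where 4.01% of 14132 probes were called lower and 3.06% higher). It passed without the lowest 25% (limma adjusted p 0.0488, with 0.712% of 21198 called lower and 0.156% higher). With a trended robust variance it passed too (limma adjusted p 0.0207, with 1.19% of 28264 called lower and 188 probes higher). So it did with log2(value + 50) (limma adjusted p 0.0417, with 180 of 28264 probes called lower and 59 higher). It missed the threshold in the other 12 alternatives (1 of them the mean of the HLA-F probes), where limma's adjusted p reached 0.394 without vector replicate 2. The other 15 probes passed in none.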

How the data were processed

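Per the labels' protocols, antisense RNA amplified from total RNA with a T7 oligo(dT) primer was dye-labelled. The authors deposited linear intensities, 1 per probe on each array. The sources used here do not give the scanner, the background correction or the normalization, and no detection flags were used. Intensities under 1 were set to 1 (5.35% of probes on vector replicate 1, under 0.1% elsewhere), log2 transformed, quantile normalized and tested over all 28264 probes with limma 3.58.1 in R 4.3.3 (no covariate, two-sided, Benjamini-Hochberg). The deposited table was the only file. Platform annotation, which can be old, named 25893 probes with 1 gene each and 0 with several, leaving 2371 unnamed; all 25893 matched RefSeq by identifier. Members, lists and the rule for names (every member; up to 5 genes of smallest p per list; the 5 nearest patterns; defining markers of each cell type) were chosen with earlier results of these data known. Of 178 listed genes 164 were measured. The fit was tested on simulated data. Alternatives covered scaling, pseudocount, dim probes, variance, weights, block, probe choice and leaving out each array. Promoter windows were aligned with Biopython 1.88, and figures drawn with matplotlib 3.10.9.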

Additional observations from a re-analysis of the deposited data

How the results depend on the processing

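Of the 16 member probes 13 kept their own sign in every alternative that holds them (gene means of probes aside), HLA-F probe 1 between -0.86 and -0.68 and HLA-E between -0.43 and -0.31. Signs turned for TAP2 probe 2 (0.0378 under median centring, 0.00086 without CCN5 replicate 2, 0.0075 without vector replicate 1), HLA-G probe 1 (0.0632 without CCN5 replicate 2), TAP1 (-0.0079 without CCN5 replicate 3, -0.0439 without vector replicate 1) and, with the gene mean of probes in place of probe 1, HLA-C (0.0762). Leaving out 1 array gave -0.0724 to 0.0075 for TAP2 probe 2, -0.227 to 0.0632 for HLA-G probe 1 and -0.0439 to 0.0594 for TAP1. Probes higher and lower over the array, 0 and 0 as reported, numbered 59 and 180 with log2(value + 50), 33 and 151 without the lowest 25% of probes, 432 and 567 without the lowest 50%, and 188 and 336 with a trended robust variance; each of these settings called 1 member probe lower, HLA-F probe 1, and 0 higher. Fewer probes were tested in the filtered settings; other causes were not tested. Leaving out 1 array gave 0 higher and 0 to 1 lower probes over the array, 10 to 13 lower member probes, and a member median of -0.23 to -0.14. The median was -0.25 without the lowest 50% of probes, which kept 12 member probes, and -0.14 over gene means of probes. With the mean of a gene's probes the list medians became -0.0246 for proteasome genes and 0.0472 for interferon signalling (both turned), 0.13 for class I transcription, -0.0168 for class I-like molecules, -0.10 for squamous and -0.0473 for fibroblast markers. Arrays of the same replicate number, which the labels do not tie to a shared batch, had deviations correlated at -0.14, 0.12 and 0.02 over the brighter 50% of probes, so the numbers were not taken as pairs. With the replicate block, 0 probes were called over the array, and HLA-F probe 1 stood at -0.79 (adjusted p 0.281). Array scaling moved the median of all probes to 0.03 (deposited scale) and 0.08 (median centring). CCN5 passed only without the lowest 50% of probes (-0.34, adjusted p 0.0486). Dim probes such as HLA-G probe 2 (percentile 14.3) have no measured signal-to-background limit here.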

Other observations

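The class I genes lie in a dense gene cluster, and the nearest measured genes on either side were read by brightest probe; they were chosen by position after the data had been seen. Beside HLA-E, RPP21 stood at 0.05 (SE 0.09) and GNL1 at -0.0067 (SE 0.08), at percentiles 97.8 and 96.4 of signal. Beside HLA-F, ZFP57 stood at -0.45 (SE 0.24) and HCG4 at 0.14 (SE 0.20), both dim. Beside TAPBP, RGL2 was at -0.06 (SE 0.10) and ZBTB22 at 0.08 (SE 0.09). HLA-C had MICA at -0.24 (SE 0.11) on one side and HCG27 at -0.28 (SE 0.17) on the other. Beside B2M, on another chromosome, the dim probe of PATL2 was at -0.55 (SE 0.13, limma adjusted p 0.136) and that of TRIM69, on the other side, at -0.10 (SE 0.21).

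Of the class I pseudogenes with a probe, HLA-J read 264, 243 and 264 on the arrays labelled CCN5, against 309, 363 and 348 on those labelled vector, without overlap (-0.37, SE 0.11, limma adjusted p 0.168). HLA-H (-0.11, SE 0.13) and HLA-L (0.12, SE 0.15) were dim, with overlapping groups. How far these probes bind transcripts of the class I genes was not tested.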
